A study of Mus musculus with 2 samples.

Results

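Intestinal stem cells were compared with transit-amplifying (TA) cells, their dividing daughters, across all genes in jejunal crypts of mice that lack miR-375. The cells were chosen by the authors' annotation of clusters, as those named Stem or TA in the 2 libraries labelled 375KO. They were 899 of the 3275 annotated cells, 256 stem cells (139 and 117 in replicates 1 and 2) and 643 TA cells (320 and 323). By the study's methods the libraries are 2 mice, each a male of 12 months (mouse 1 and mouse 2 below) with a whole-body deletion of the miR-375 gene, made by CRISPR/Cas9 editing of embryos and labelled C57BL6/2J. Every cell of both classes therefore lacks miR-375, wild-type mice were not analysed here, and nothing below measures an effect of its loss. The study used these libraries to ask whether genes named as miR-375 targets in a human model are controlled by it in adult mouse stem cells. Stem against TA was described here because both classes divide and share the crypt.

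The intestinal lining is renewed from Lgr5-positive stem cells at the crypt base, where Wnt signals from neighbouring cells keep the stem programme on. Daughters that leave the base become TA cells, which divide rapidly while they begin to take on an absorptive or a secretory fate. Progress through the cell cycle follows gene waves, with replication genes driven by E2F factors before and during DNA synthesis and mitotic genes driven through CHR and CCAAT promoter elements afterwards.

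Values below are UMI counts (unique molecular identifiers, each marking 1 captured RNA molecule) summed over the cells of a class in a mouse, and given as counts scaled to 1000000 UMIs of that sum (CPM). The stem sums held 1783854 and 1604263 UMIs and the TA sums 8439649 and 5718329 UMIs, in mouse 1 and mouse 2. TA cells were deeper, with median UMIs per cell of 20811 and 16966 against 12282 and 12559 in stem cells. The median mitochondrial share was 10.2% and 5.90% in stem cells and 9.02% and 5.52% in TA cells. No barcode was shared by the libraries. All 6 stem markers checked (Lgr5, Ascl2, Olfm4, Smoc2, Axin2 and Slc12a2) were higher in the stem class, and 4 of 6 TA markers (Mki67, Top2a, Cenpa and Birc5) in the TA class. The exceptions were the replication genes Mcm4, which was higher in stem cells, and Pcna, which was not called. The authors named clusters from markers measured in these same cells, so such differences describe the classes and do not test whether they exist.

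Genes of mitosis were lower in stem cells than in TA cells, and Wnt-driven stem genes were higher. Of 10009 genes tested, 1970 (19.7%) differed at an adjusted p under 0.05 by the quasi-likelihood test of edgeR with mouse as a block. These were split evenly, with 989 (9.88%) higher and 981 (9.8%) lower in stem cells, and 639 differed at least 2-fold (263 higher, 376 lower). The direction was the same in both mice for 1954 of the 1970 genes, and for 4799 (59.7%) of the 8039 that were not called. The test was fitted to these same 2 mice, so this is not replication. For most genes its spread was pooled over genes, so disagreement between the mice on a single gene counted for little. The number of calls rested on how the spread was estimated from 4 sums with 1 residual degree of freedom. It was 477 (4.77%) with the Wald test of DESeq2, 532 of 11013 genes (4.83%) when sums of all 9 epithelial classes shared the fit, and 11 (0.11%) with mouse left out of the model, all 11 lower in stem cells. A total of 308 genes (3.08%) passed with edgeR, DESeq2 and the 9-class fit alike, 110 (1.1%) of them higher and 198 (1.98%) lower in stem cells. These are the 3 tests meant below.

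**Figure D1:**
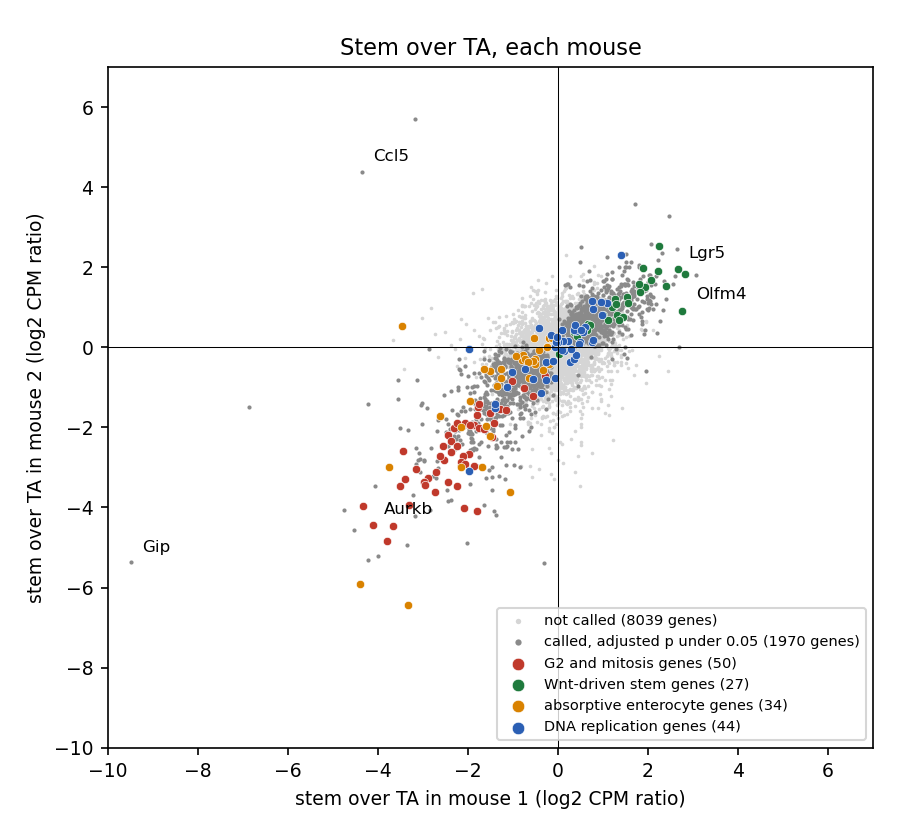
Each point is 1 of 10009 genes, placed by its stem over TA log2 CPM ratio in mouse 1 (x axis) and mouse 2 (y axis), with called genes in dark grey and members of 4 gene lists in colour. The 50 G2 and mitosis genes lie below 0 in both mice, Wnt-driven stem genes lie above 0 in both for 26 of 27, and Ccl5 is far from 0 in opposite directions.

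Wnt-driven stem genes were mostly higher in stem cells. Of 30 listed, 27 were measured well enough to test and 23 were higher in stem cells, none was lower and 4 did not pass, with a median log2 fold change of 1.26 against 0.0079 over all genes tested. All 3 tests called 15 of the 27, against 1.1% of all genes in that direction. The list overlaps the markers by which such clusters are named, so it is not independent evidence. Lgr5, the receptor for R-spondins that marks crypt base stem cells (chr10:115450311-115587780, minus strand, mm10), was at 54.9 and 28.1 CPM in stem cells and at 9.01 and 7.69 CPM in TA cells. Both stem values lay above both TA values, and the log2 fold change was 2.47 ± 0.20 (SE, as after each ± below). This SE rests largely on a spread pooled over all genes. It does not measure how far the mice differ for a single gene. Ascl2, the transcription factor that maintains stem cell fate, was almost the same in the stem cells of both mice (60.0 and 59.8 CPM) and lower in TA cells (16.8 and 23.3 CPM). Smoc2, a secreted matrix protein, was at 132 and 118 CPM against 62.7 and 65.2 CPM. Slc12a2, a sodium-potassium-chloride cotransporter, had the most abundant message of the list, at 545 and 308 CPM in stem cells and 206 and 143 CPM in TA cells. Cdca7 had a log2 fold change of 1.61 ± 0.11 and Sox9, a transcription factor of the crypt base, of 1.36 ± 0.13. Axin2, a direct Wnt target, differed less (0.92 ± 0.13), and Myb, which proliferating crypt cells need, least of those called (0.37 ± 0.12).

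Olfm4, the secreted glycoprotein widely used as a stem cell marker (chr14:79984081-80023139, plus strand), differed more between the mice than between the classes. It was at 313 CPM in stem cells of mouse 1 and at 14.3 CPM in those of mouse 2, and at 47.8 and 4.2 CPM in TA cells. Stem cells of mouse 2 were therefore below TA cells of mouse 1, although stem exceeded TA within each mouse, by 2.83 and 1.82 on the log2 scale. A UMI of Olfm4 was found in 79.1% of stem cells in mouse 1 (exact 95% interval 71.4 to 85.6%) and in 16.2% in mouse 2 (10.1 to 24.2%), and in 29.4% and 5.26% of TA cells. Goblet cells, which should lack it, had it in 0 of 277 and 0 of 138 cells, which allows shares of cells with a UMI of up to 1.08% and 2.17%. Lgr5 was closer between the mice, with a UMI in 32.4% and 24.8% of stem cells and in 9.69% and 8.36% of TA cells, against 1.44% of goblet cells in mouse 1 and 0 of 138 in mouse 2. When every cell was thinned to 5000 UMIs, Lgr5 was found in 22.8% and 15.4% of stem cells and in 3.44% and 3.41% of TA cells. The intervals cover counting error only.

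Among genes with a mean of at least 50 CPM in stem cells and the same direction in both mice, those with the largest differences on the stem side also included genes outside the Wnt list. Phlda1, a pleckstrin-homology protein linked to epithelial stem cells, was at 39.8 and 65.5 CPM in stem cells and 9.01 and 15.6 CPM in TA cells. Soat1, which esterifies cholesterol, was at 84.1 and 26.2 CPM against 13.2 and 15.4 CPM, with log2 ratios of 2.76 in mouse 1 and 0.90 in mouse 2. Rgcc, a regulator of cell cycle, and Igfbp4, which binds insulin-like growth factors, had log2 fold changes of 2.02 ± 0.17 and 1.96 ± 0.16. Ifitm3, an interferon-induced membrane protein, was the most abundant of these genes, at 862 and 981 CPM in stem cells and 224 and 368 CPM in TA cells. Acot1, an acyl-CoA thioesterase, Pdgfa, a growth factor ligand, and Agr3, of the protein disulfide isomerase family, differed by 1.83 ± 0.16, 1.75 ± 0.14 and 1.95 ± 0.17. A higher value in stem cells of both mice was a condition for choosing these genes, so it is not a result. All but Soat1 and Agr3 passed all 3 tests.

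Genes of G2 and mitosis were lower in stem cells than in the pooled TA class without exception. All 50 tested members of a list of 51 passed in that direction, and 47 passed all 3 tests, with a median log2 fold change of -2.41. The list overlaps the TA markers above, and clusters were named from markers measured in these cells, so it is not independent evidence. The summed level of the list was 2377 and 1694 CPM in stem cells and 9194 and 7359 CPM in TA cells. Aurkb, the kinase of the chromosomal passenger complex, was at 3.36 and 1.87 CPM in stem cells and 71.4 and 53.9 CPM in TA cells, a log2 fold change of -4.42 ± 0.29. Nusap1 and Prc1, which bundle spindle microtubules, differed by -4.30 ± 0.26 and -3.98 ± 0.23. The mitotic kinases Plk1 and Aurka and the spindle motor Kif11 followed at -3.65 ± 0.24, -3.20 ± 0.24 and -3.20 ± 0.24. Ube2c, the ubiquitin-conjugating enzyme of the anaphase-promoting complex, was at 59.4 and 43.0 CPM against 581 and 397 CPM. Top2a, the topoisomerase that untangles sister chromosomes, was at 49.3 and 28.7 CPM against 406 and 310 CPM. The most abundant members differed less, Hmgb2 by -1.37 ± 0.09, Tubb4b by -1.62 ± 0.10 and Cks2 by -1.45 ± 0.11, and Pttg1 (securin) differed least (-0.48 ± 0.13).

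Mki67, the proliferation marker Ki-67, was at 75.7 and 28.1 CPM in stem cells and 327 and 199 CPM in TA cells. Its UMIs were found in 36.7% and 29.1% of stem cells and in 93.8% and 90.7% of TA cells, against 12.6% and 21.7% of goblet cells at a median depth of 13649 and 15709 UMIs. At 5000 UMIs per cell the shares were 25.7% and 12.8% in stem and 70.6% and 60.4% in TA cells, against 6.88% and 10.9% of goblet cells. In mouse 2 the exact 95% intervals of stem (7.36 to 20.3%) and goblet cells (6.21 to 17.3%) overlapped, so at this depth Mki67 in its stem cells was not apart from that background. The replication and mitosis lists together took a median of 0.434% and 0.285% of the UMIs of a stem cell and 1.15% and 0.866% of those of a TA cell. A comparison was added after the data were seen in the cells whose share was under the median of the stem and TA cells of their mouse, 132 and 112 stem cells and 97 and 108 TA cells. The replication and mitosis genes set this choice of cells, so their differences there are not read. Of all genes, 1032 of 8864 were called (11.6%; 5.72% higher and 5.92% lower in stem cells), and 20 of 27 Wnt-driven genes were higher in stem cells. The 97 and 108 TA cells were 53 and 45 of the authors' cluster 8, 29 and 25 of cluster 10, 11 and 19 of cluster 13 and 4 and 19 of cluster 5. The choice therefore also changed the mix of TA clusters, which are described below. The same holds for each value from these cells below.

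**Figure D2:**
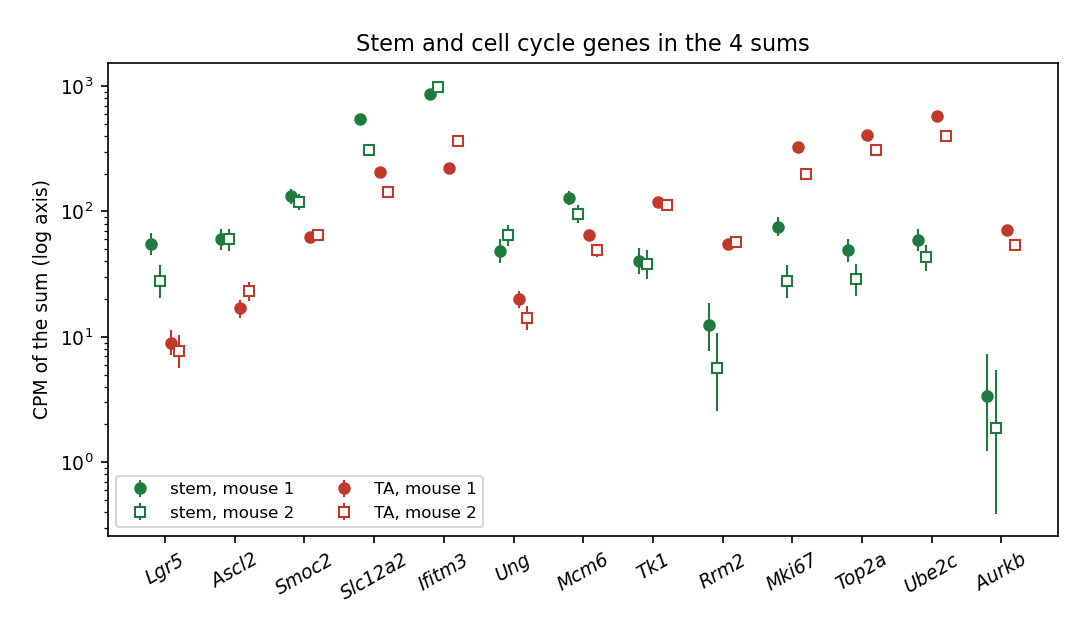
CPM on a log axis in stem sums (green) and TA sums (red) of mouse 1 (filled circles) and mouse 2 (open squares), with exact 95% Poisson intervals of the counts. Lgr5, Ascl2, Smoc2, Slc12a2, Ifitm3, Ung and Mcm6 are higher in stem cells of both mice, and Tk1, Rrm2, Mki67, Top2a, Ube2c and Aurkb are higher in TA cells of both.

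The promoters of the mitosis genes shared short sequences that the list was not chosen on. RefSeq promoters (GRCm38.p6), 300 bases that run from 250 before to 50 after the start, were found for 44 of the 50 genes. The CHR element (TTTGAA or TTTAAA, either strand) was present in 35 of them (79.5%), against 22.5% of 7719 tested genes with a promoter and 15% of 20 Wnt-driven genes. The CCAAT box (CCAAT, either strand) was present in 34 (77.3%), against 43.2% of all tested genes. Both were present in 30 (68.2%), against 9.35%. The E2F core (TTCCCGC or TTGGCGC, either strand) was present in 4 (9.09%) and so below the 15.2% of all tested genes, while it was present in 19 of 35 replication genes (54.3%). A match is a description of the sequence and not of factor binding. The stretches around the CHR match nearest to the start are shown for the mitosis genes that lead this comparison, by fold or by abundance, with the match in capitals and the bases on the strand of the gene.
Prc1: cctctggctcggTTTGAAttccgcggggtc
Plk1: gcgggtttgtatTTTAAAtccccgcggcca
Kif11: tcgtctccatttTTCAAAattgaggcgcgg
Aurka: tttgactcctatTTTAAAaggagaaccttt
Ube2c: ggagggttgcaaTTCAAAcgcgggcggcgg
Top2a: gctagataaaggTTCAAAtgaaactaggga
Hmgb2: ggactctccgggTTTGAAtaatcctccaca
Tubb4b: gcaaatcaatcaTTTGAAacacccaatgga
They lie at chr7:80294434-80294463 (Prc1, plus strand), chr7:122159394-122159423 (Plk1, plus), chr19:37376351-37376380 (Kif11, plus), chr2:172370536-172370565 (Aurka, minus), chr2:164769888-164769917 (Ube2c, plus), chr11:99024195-99024224 (Top2a, minus), chr8:57511801-57511830 (Hmgb2, plus) and chr2:25224883-25224912 (Tubb4b, minus). TTCAAA is TTTGAA read on the other strand. The match begins between 5 and 30 bases before the start in Prc1, Plk1, Kif11, Ube2c, Top2a and Hmgb2, 198 bases before it in Tubb4b, and 17 bases after it in Aurka. All 8 promoters also held a CCAAT box. The promoter of Nusap1 held neither element, that of Cks2 held CCAAT alone, and none was listed for Aurkb.

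**Figure D3:**
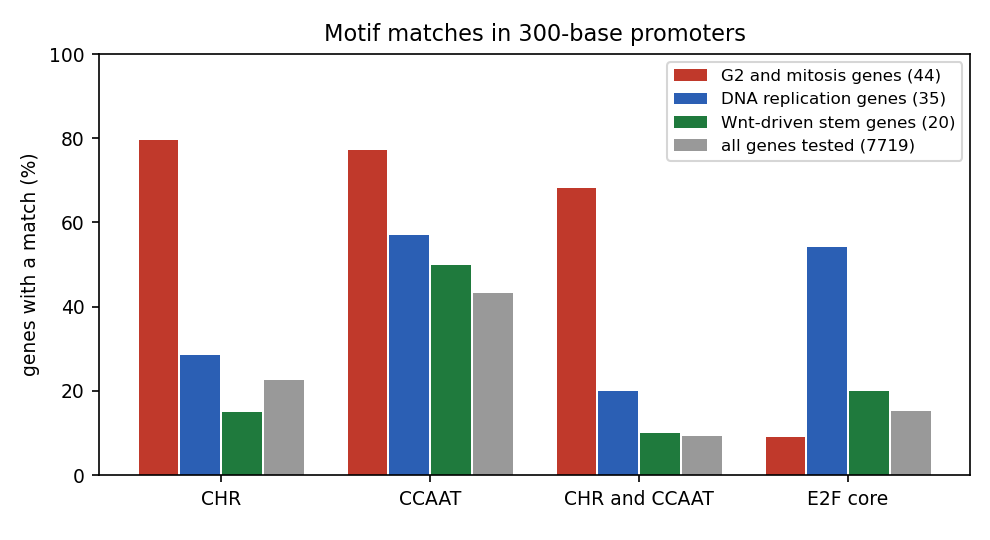
Bars give the percent of genes whose 300-base promoter holds each motif, for the mitosis (44 genes with a promoter), replication (35) and Wnt-driven (20) lists and for all tested genes (7719). The CHR bar of the mitosis list is at 79.5% and that of all tested genes at 22.5%, whereas the E2F bar is highest for the replication list.

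DNA replication genes, in contrast, were divided between the classes. Of 44 tested, 14 (31.8%) were higher and 7 (15.9%) lower in stem cells, against 9.88% and 9.8% of all genes, with a median of 0.14. The summed level was nearly equal, at 2358 and 1674 CPM in stem cells and 2343 and 1757 CPM in TA cells. The higher ones included the origin licensing genes Mcm6 (1.10 ± 0.13), Cdt1 (1.05 ± 0.15), Mcm2 (0.92 ± 0.15) and Mcm4 (0.85 ± 0.17). Ung, the uracil-DNA glycosylase, was at 48.8 and 64.8 CPM in stem cells and 19.9 and 14.2 CPM in TA cells (1.84 ± 0.17). The lower ones included genes that make deoxynucleotides. Rrm2 and Rrm1, the subunits of ribonucleotide reductase, differed by -2.46 ± 0.22 and -1.08 ± 0.15, thymidine kinase Tk1 by -1.42 ± 0.15 and thymidylate synthase Tyms by -0.65 ± 0.13. Rrm2 was at 12.3 and 5.61 CPM in stem cells against 54.6 and 56.8 CPM. Dut, which removes dUTP, did not follow them and was slightly higher in stem cells (0.39 ± 0.11), as were Slbp (0.41 ± 0.12) and Hells (0.52 ± 0.13). All 3 tests called 4 of the genes higher and 3 lower, beside 1.1% and 1.98% of all genes.

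Among 13 cyclin D, CDK and CDK inhibitor genes, 2 (15.4%) were higher and 5 (38.5%) lower in stem cells, against 9.88% and 9.8% of all genes, and 1 and 3 passed all 3 tests. The higher genes were Cdk4 and Cdk6, kinases that partner D cyclins, at 0.54 ± 0.10 and 1.19 ± 0.13. The cyclins themselves were not called, with Ccnd2 at 454 and 632 CPM in stem cells and 517 and 533 CPM in TA cells, and Ccnd1 at 213 and 138 CPM against 199 and 131 CPM. The lower genes were mostly inhibitors. Cdkn2b (p15) was at 6.17 and 4.99 CPM in stem cells and 64.3 and 33.8 CPM in TA cells, a log2 fold change of -3.00 ± 0.26. Cdkn2d (p19), Cdkn2c (p18) and Cdkn1a (p21) differed by -2.35 ± 0.29, -1.91 ± 0.26 and -1.08 ± 0.18. Cdk4 and Cdkn1a were not called in edgeR with 9 classes (adjusted p = 0.0558 and 0.419), and Cdkn2d was at -0.95 in cells with a low cell cycle share (adjusted p = 0.133 in edgeR). H2afx, the histone variant of the DNA damage response, was lower as well, at 44.3 and 47.4 CPM against 237 and 224 CPM.

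**Figure D4:**
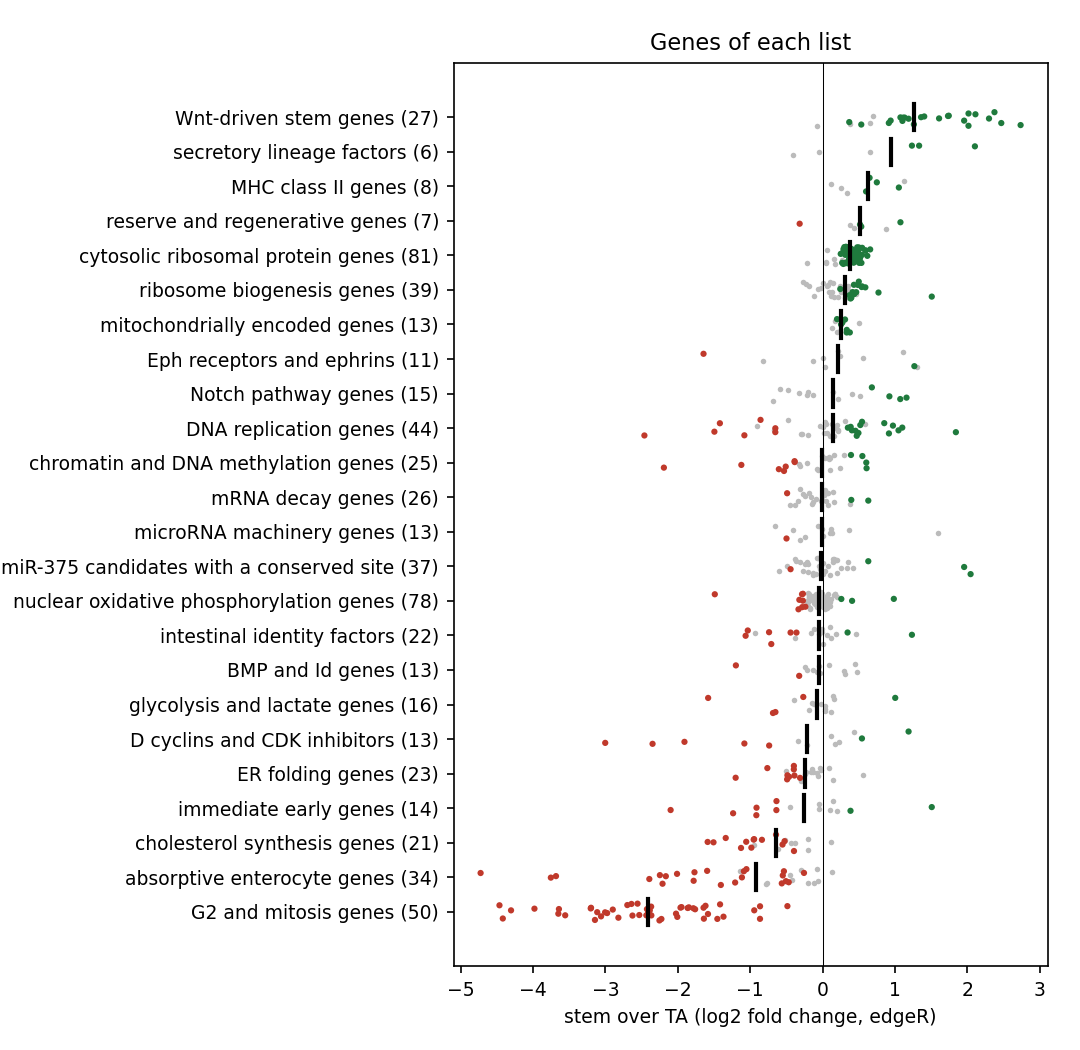
Log2 fold changes of stem over TA for the tested genes of 24 lists (number in brackets), ordered by median (black bar), with called genes in green (higher in stem) or red (lower) and others in grey. The lists run from the Wnt-driven stem genes, with a median of 1.26, to the G2 and mitosis genes, with a median of -2.41.

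The TA class held 4 of the authors' clusters, and they did not differ from stem cells in the same way. Clusters 5, 8, 10 and 13 held 117, 82, 68 and 53 cells in mouse 1 and 127, 74, 69 and 53 cells in mouse 2. As clusters are built from the expression of these cells, their levels are given as a description. TA cluster 13 carried Wnt-driven stem genes at the level of stem cells, with a summed 2398 and 2152 CPM against 2411 and 1686 CPM. The other 3 clusters were between 357 and 910.3 CPM. Lgr5 was at 43.2 and 41.2 CPM in TA cluster 13 and between 0 and 3.27 CPM in the others. Cluster 13 had mitosis genes at 9012 and 7116 CPM all the same, and Mki67 at 336 and 210 CPM. The label TA thus covers cells in which stem markers were as high as in the stem class. Against this cluster alone, 282 of 8784 genes (3.21%) were called, 0 of 27 Wnt-driven genes among them, and 48 of 50 mitosis genes were lower in stem cells, against 2.58% of all genes. Of 109 genes examined one by one, 29 pointed the other way against this cluster alone, among them Ascl2 (-0.26), Axin2 (-0.41) and Sox4 (-0.36) on the stem side and Reg3g (1.76) and Ldha (0.52) on the TA side. With cluster 13 left out of the TA sums, also added after the data were seen, 2132 of 9846 genes (21.7%) were called and the median of the Wnt list was 2.09.

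The other TA clusters differed by cell cycle wave and by absorptive genes. TA cluster 10 had the highest level of replication genes, a summed 4604 and 3762 CPM, and against it 36 of 44 replication genes were lower in stem cells and 0 higher, where 5.08% of all 8615 genes tested were lower. Of 50 mitosis genes 39 were lower in stem cells than in TA cluster 10 and 1 was higher. Mcm6 was at 160 and 136 CPM there, above the 128 and 95.4 CPM of stem cells, so that the direction in the pooled TA class did not hold for it. TA cluster 5 had the highest level of mitosis genes, 12168 and 9418 CPM. TA cluster 8 had the lowest level of replication genes (864 and 792 CPM) and of Wnt-driven genes (357 and 469 CPM), and the highest level of absorptive genes (11207 and 4765 CPM). The inhibitor Cdkn2b was at 130 and 68.7 CPM in cluster 8 and 83.5 and 42.2 CPM in cluster 5. It was at 12.5 and 9.81 CPM in cluster 10, and no UMI was found in cluster 13, which allows up to 1.82 and 3.17 CPM.

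**Figure D5:**
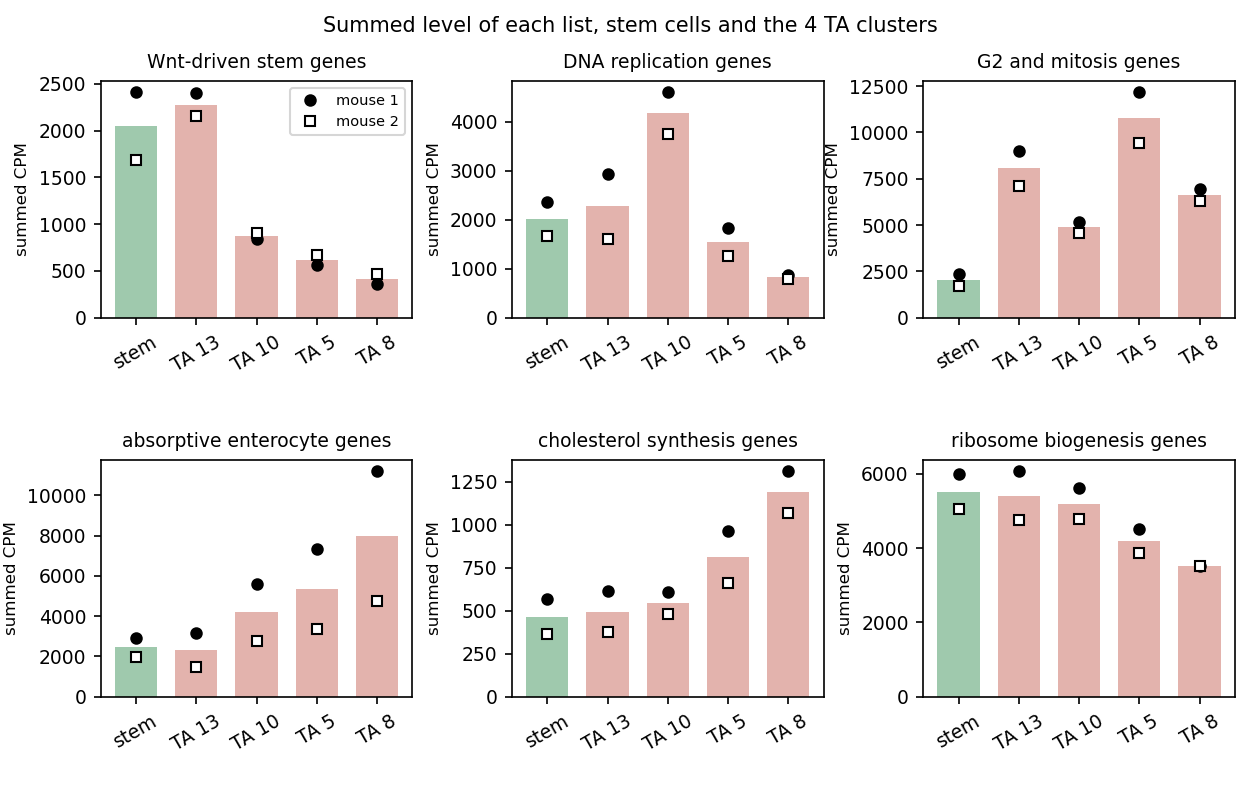
Summed CPM of 6 gene lists in stem cells (green bar) and the 4 TA clusters (red bars), with bars at the mean of the mice and points for mouse 1 (filled circle) and mouse 2 (open square). In TA cluster 13 Wnt-driven genes are as high as in stem cells and mitosis genes are above them, replication genes peak in TA cluster 10, and absorptive and cholesterol synthesis genes are highest in TA cluster 8.

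Genes that build and make up ribosomes were higher in stem cells than in the pooled TA class by small amounts. Of 39 ribosome biogenesis genes, 16 (41.0%, against 9.88% of all genes) were higher and 0 lower, with a median of 0.31. Myc, the growth regulator that also belongs to this list, was at 46.0 and 105 CPM against 21.7 and 35.3 CPM (1.51 ± 0.15). Npm1, a nucleolar chaperone, was at 2043 and 1376 CPM against 1320 and 887 CPM (0.77 ± 0.08) and Ncl at 951 and 661 CPM against 791 and 531 CPM (0.43 ± 0.09). Nop10 differed by 0.25 ± 0.09, and Nhp2 was not called (0.11 ± 0.10). Of 81 cytosolic ribosomal protein genes, 73 (90.1%) were higher and 0 lower, with a median of 0.38, for example Rpl32 by 0.37 ± 0.07 and Rps19 by 0.45 ± 0.07. Their sum was 267670 and 356715 CPM in stem cells and 215888 and 312298 CPM in TA cells, so the mice differed by more than the classes. Against TA cluster 13 alone 0 of 39 biogenesis and 0 of 81 ribosomal protein genes were called, where 3.21% of all genes were. Their medians there were 0.087 and 0.13. Against TA cluster 10 alone 2 of 39 and 69 of 81 were higher in stem cells, where 4.75% of all genes were. All 3 tests called only 1 of the 39 biogenesis genes and 2 of the 81 ribosomal protein genes, beside 1.1% of all genes called higher. DESeq2 called 4 of the 39 and 60 of the 81 higher, beside 2.28% of all genes. The 9-class fit called 1 and 2, beside 1.9% of all genes. Mitochondrially encoded genes were higher for 8 of 13 (61.5%) with a median of 0.26. In the cells with a low cell cycle share 0 of 13 were called, where 11.6% of all genes were. Of 78 nuclear genes of oxidative phosphorylation 3 (3.85%) were higher and 8 (10.3%) lower, against 9.88% and 9.8% of all genes.

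Absorptive genes were lower in stem cells. Of 40 listed, 34 were tested, 22 (64.7%, against 9.8% of all genes) were lower and 0 higher, with a median of -0.92, and 5 were lower in all 3 tests. Against TA cluster 13 alone 2 were higher and 2 lower of 26 tested and the median was 0.19, with summed levels of 3184 and 1450 CPM in that cluster and 2934 and 1984 CPM in stem cells. Fabp1, a fatty acid carrier of enterocytes, was at 45.4 and 1.25 CPM in stem cells and 507 and 158 CPM in TA cells. Rbp2, which carries retinol, was at 5.61 and 0 CPM against 140 and 25.7 CPM. Sis, the sucrase-isomaltase of the brush border, was at 35.3 and 14.3 CPM against 240 and 53.3 CPM. Reg3g, an antimicrobial lectin, differed by -1.78 ± 0.11, and the abundant members Fabp2 and Prap1 by -0.56 ± 0.09 and -0.26 ± 0.09. Mouse 1 was above mouse 2 in TA cells for each gene named here. The matrices also hold entries stored as 0, which made up 2.56% and 4.19% of stored entries, and the authors state that free RNA was subtracted with SoupX. A stored 0 stood for Fabp1 in 64.7% and 56.4% of stem cells and 56.9% and 59.1% of TA cells, and for Rbp2 in 59.7% and 33.3% against 55.6% and 44.3%. Their part in the result was not tested. Krt20, a keratin of differentiated cells, had a stored 0 in 0.719% and 3.42% of stem cells, and it was at 1.68 and 1.87 CPM against 30.8 and 19.4 CPM (-3.68 ± 0.38).

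Cholesterol synthesis genes were lower in stem cells too, 13 of 21 (61.9%, against 9.8% of all genes) with 0 higher and a median of -0.64. Hmgcs1, which makes HMG-CoA, was at 43.2 and 26.2 CPM against 90.4 and 56.7 CPM. Stard4, a sterol carrier, differed by -0.39 ± 0.13. The level followed the TA clusters, at 1310.5 and 1068 CPM in cluster 8 and 605 and 480 CPM in cluster 10, and 566 and 364 CPM in stem cells. Of 16 glycolysis genes 4 (25%) were lower, Pfkp (-1.58 ± 0.19), Pkm (-0.68 ± 0.11), Ldha (-0.65 ± 0.09) and Pgam1. The hexokinase Hk2 was higher (1.01 ± 0.25), which is 6.25% of the list against 9.88% of all genes. Of 23 endoplasmic reticulum folding genes 9 (39.1%) were lower, among them the disulfide isomerase P4hb (-0.76 ± 0.11), and 0 were higher. In all 3 tests 1 gene of each of these lists was called lower, beside 1.98% of all genes.

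Signalling and lineage genes gave calls in both directions, to be read beside the 9.88% higher and 9.8% lower of all genes. Of 15 Notch genes 4 (26.7%) were higher in stem cells and 0 lower, and 1 passed all 3 tests. Hes1, the repressor that Notch turns on, was at 108 and 121 CPM against 63.2 and 97.6 CPM (0.68 ± 0.12), Hes6 differed by 0.92 ± 0.14, and Dll1, a Notch ligand of secretory precursors, and Lfng, which modifies Notch, by 1.07 ± 0.32 and 1.16 ± 0.39. Of 15 secretory lineage factors only 6 were tested, and Sox4 (1.34 ± 0.11), Foxa3 (2.11 ± 0.21) and Foxa2 (1.24 ± 0.32) were higher, 2 of them in all 3 tests. Sox4 was at 211 and 168 CPM in stem cells and 91.4 and 74.5 CPM in TA cells, but at 315 and 214 CPM in TA cluster 13. Against that cluster alone 0 of 13 tested Notch genes and 0 of 5 tested secretory factors were called, where 3.21% of all genes were. Their medians there were -0.25 and -0.36. Among 22 intestinal identity factors 2 (9.09%) were higher and 6 (27.3%) lower, none of them in all 3 tests, including Gata4 (-0.71 ± 0.17), Klf5 (-0.44 ± 0.10) and Hnf4a (-0.36 ± 0.11). Of 11 Eph receptor and ephrin genes, which sort cells along the crypt, Efna4 was higher (1.27 ± 0.18) and Efnb2 lower (-1.64 ± 0.33), and 9.09% in each direction is near the share of all genes. Of 13 BMP and Id genes 0 were higher and 2 (15.4%) lower, none in all 3 tests, and of 25 chromatin genes 4 were higher, Hmgn1 among them (0.60 ± 0.09), and 7 lower, H2afz among them (-0.60 ± 0.08), with 0 and 3 in all 3 tests. Of 14 immediate early genes 2 were higher (Myc and Ier2) and 6 lower, with Fos at 15.7 and 37.4 CPM against 45.7 and 61.9 CPM. In the cells with a low cell cycle share 0 of 11 tested were lower, where only 5.92% of all genes were.

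MHC class II genes were higher for 4 of 8 (50%, against 9.88% of all genes), with 0 lower. Cd74, the invariant chain, was at 804 and 883 CPM in stem cells and 563 and 666 CPM in TA cells. H2-Ab1 differed by 0.75 ± 0.11. H2-Eb1 separated the mice more than the classes, at 29.7 and 6.40 CPM in stem and TA cells of mouse 1 and 127 and 88.3 CPM in those of mouse 2. None of the 8 passed all 3 tests. Of 7 tested reserve and regenerative genes 3 (42.9%) were higher and 1 (14.3%) lower, against 9.88% and 9.8% of all genes, and 0 passed all 3 tests. Hopx, a marker of reserve stem cells, was among those higher, yet the mice went in opposite directions. It was at 166 CPM in stem and 109 CPM in TA cells of mouse 1 and at 19.3 and 25.5 CPM in mouse 2.

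The genes that the study followed in stem cells were compared between these classes as well. Zfp36l2, an RNA-binding protein that promotes decay of AU-rich messages (chr17:84183931-84187947, minus strand), was at 246 and 210 CPM in stem cells and 174 and 150 CPM in TA cells. The ratio was 0.63 on the log2 scale in each mouse, and the gene passed all 3 tests (adjusted p = 6.43e-08 in edgeR, 0.00257 in DESeq2 and 0.0447 in edgeR with 9 classes). In TA cluster 13 it was at 304 and 199 CPM, so stem cells were below that cluster in mouse 1 and slightly above it in mouse 2. Its paralogs were not called, Zfp36 at -0.44 ± 0.21 and Zfp36l1 at 0.16 ± 0.14. Arl4c, a small GTPase (chr1:88673125-88702221, minus strand), had few UMIs, 9 and 8 in stem cells and 13 and 6 in TA cells, or 5.05 and 4.99 CPM against 1.54 and 1.05 CPM. It was called by edgeR (2.05 ± 0.60), had an adjusted p of 0.118 in edgeR with 9 classes, and was given none by DESeq2. Of 26 mRNA decay genes 2 (7.69%) were higher, Zfp36l2 and Btg1 (0.40 ± 0.12), and 1 (3.85%) was lower (Tob1). Of 13 microRNA machinery genes 0 were higher and 1 (7.69%) lower (Tarbp2). None of these shares exceeded the 9.88% higher and 9.8% lower of all genes. Of 95 tested candidate targets of miR-375, genes that the study listed in its human model, 5 were higher and 11 lower, with a median of -0.03. Of the 37 with a conserved site 3 were higher (Zfp36l2, Igfbp4 and Arl4c) and 1 lower (Klf5). The shares of candidates, 5.26% and 11.6% for all and 8.11% and 2.7% for those with a conserved site, stand beside 9.88% and 9.8% of all genes.

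Some called genes came from few cells, and markers of other classes were among them. Gip, the hormone of K cells, had 0 UMIs in stem cells of both mice and 2913 and 101 UMIs in TA cells, at least 205-fold higher in mouse 1 and at least 9.45-fold higher in mouse 2 with 3 counts allowed in each stem sum. These UMIs came from 2 TA cells of mouse 1, 1 of which held 65.2%, and from 1 cell of mouse 2. Tff3, a goblet cell peptide, was at 387 and 196 CPM in stem cells and 83.2 and 114 CPM in TA cells, from 17 and 5 stem cells and 19 and 13 TA cells. A stored 0 for it stood in 71.2% and 82.9% of stem cells. Lyz1, the lysozyme of Paneth cells, was at 71.8 CPM in stem and 11.7 CPM in TA cells of mouse 1 and was listed at 0 in both classes of mouse 2, where 100% of stem cells had a stored 0. Agr2 was listed at 0 in both classes of mouse 2 likewise. The lymphocyte genes Ccl5 and Gzma were called higher in stem cells on the 92 and 32 UMIs of a single stem cell of mouse 2. No tuft cell marker was tested, and the 6 summed to between 1.68 and 17.3 CPM. Goblet markers summed to 556 and 218 CPM in stem cells and 314 and 157 CPM in TA cells, and enterocyte markers to 132 and 46.8 CPM against 961 and 294 CPM. Paneth markers summed to 181 and 11.8 CPM against 23.3 and 29.4 CPM, enteroendocrine markers to 14.01 and 3.12 CPM against 364 and 47.4 CPM, and markers of intraepithelial lymphocytes to 0.561 and 86.6 CPM against 20.6 and 3.67 CPM. The part of such cells in the results was not tested. By contrast, Hist1h1b, a linker histone of S phase, was found in 203 and 57 TA cells and in 17 and 1 stem cells, at 131 and 14.2 CPM against 12.3 and 0.623 CPM.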

How the data were processed

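Crypt cells of the 2 mice were captured on the 10x 3' platform, and the deposited matrices hold UMI counts per gene and cell that the authors made with Cell Ranger 3.0.1 on mm10. The authors used SoupX, scDblFinder, sctransform and Seurat (3.2.1 in the submitters' processing notes), removed cells with under 1500 genes or over 25% mitochondrial UMIs, and named clusters at resolution 0.7 by marker scores. The deposited table of cells gives cluster names and the mitochondrial percent. It was joined by order to the columns of the combined count table, and 2937 columns of another series were not used. The matrices held 7665 and 1251 barcodes, of which 2082 and 1193 were annotated cells.

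Raw counts were summed per mouse and class, 1604263 to 8439649 UMIs a sum, and tested with the quasi-likelihood test of edgeR 4.0.16 (limma 3.58.1, R 4.3.3; TMM, filterByExpr, mouse as a block, two-sided, Benjamini-Hochberg 0.05). The block rests on both classes of a number coming from the same mouse. SE is the log2 fold change divided by the square root of F. Alternatives included DESeq2 1.42.0. On simulated counts of 9863 genes with 200 changed 2-fold, 89.5% of the changed genes were recovered and 1.65% of calls were unchanged genes. The simulation gave every gene the same spread and the same change in both mice, and changed only genes with higher counts. It therefore does not give the share of false calls among the 1970 genes called in the real sums.

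Named genes were the 12 highest and 12 lowest by fold with a mean of at least 50 CPM and 1 direction in both mice, the 4 most abundant and any called members of each list, and Lgr5, Ascl2, Olfm4, Mki67, Zfp36l2, Zfp36, Zfp36l1 and Arl4c. Some genes that this rule names are not reported here. The cell classes, lists and members were chosen with earlier results of these data known. Gene positions are from GENCODE vM21. Cells were not treated as replicates. Counting intervals are exact at 95% and a count of 0 allows 3 counts.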

Additional observations from a re-analysis of the deposited data

How the results depend on the processing

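The number of called genes, 1970 in the comparison as reported, was within 1.5 times of that with size factors of DESeq2 (1790), no filter on low counts (1784, of which 650 higher and 1134 lower in stem cells), cells of at most 10% mitochondrial UMIs (1624), TA cluster 5 (2054), TA cluster 8 (2340) and TA cells without cluster 13 (2132). It was 477 with the Wald test of DESeq2, 532 with sums of all 9 classes (209 higher and 323 lower), 859 with cells thinned to 5000 UMIs, 1032 in cells with a low cell cycle share, 847 against TA cluster 10 and 282 against TA cluster 13 (55 higher and 227 lower). With no replicate block it was 11, and 845 genes had an unadjusted p under 0.05, against 3044 with the block. All 477, 522 of the 532 and 807 of the 859 genes were also called in the comparison as reported. The cause of these differences was not tested. Low cell cycle share and TA cells without cluster 13 were chosen after seeing the data. A comparison of cells in G1 was not run, since the table of cells gives no phase. Leaving out a mouse leaves no residual degrees of freedom, so it gives log2 ratios with no test.

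For 109 genes, 1220 of 1603 log2 fold changes under these alternatives kept their direction and side of the threshold, 314 missed the threshold, 7 newly passed it and 62 changed direction, in 47 genes. Against TA cluster 13 alone the log2 fold change turned below 0 for Rgcc (-0.14), Ascl2 (-0.26), Zfp36l2 (-0.015), Zfp36l1 (-0.34), Slc12a2 (-0.13), Myb (-0.14), Axin2 (-0.41), Smoc2 (-0.060), Cdk6 (-0.054), Cd44 (-0.13), Hells (-0.086), Pcna (-0.061), Ncl (-0.0024), Nhp2 (-0.18), Dll1 (-0.26), Lfng (-0.71), Sox4 (-0.36), Foxa2 (-0.28) and Hopx (-0.31). It turned above 0 for Zfp36 (0.12), Cdkn1a (0.46), Fabp2 (0.24), Prap1 (0.20), Reg3g (1.76), Sis (0.022), Klf5 (0.16), Ldha (0.52), Pkm (0.18) and Pfkp (0.48). Against TA cluster 10 alone it turned below 0 for Dut (-0.58), Slbp (-0.74), Hells (-0.73), Mcm6 (-0.29), Cdt1 (-0.42), Mcm2 (-0.29), Mcm4 (-0.39), Pcna (-1.19), Cdk4 (-0.043) and Nhp2 (-0.10), and above 0 for Zfp36 (0.28), Pttg1 (0.56), Hmgcs1 (0.19), Hnf4a (0.0072), Fos (0.11) and Agr2 (2.10). Agr2 also turned above 0 against TA cluster 5 (2.49), TA cluster 8 (1.15), TA cells without cluster 13 (1.93), with thinned cells (0.35) and with the Wald test (0.48). Against TA cluster 8, Tyms was at 0.39 and Rrm1 at 0.067. With thinned cells Pcna was at -0.021 and Nhp2 at -0.14, and with the Wald test Ccl5 was at -1.004. With 1 mouse left out in turn, values ranged from -0.42 to 0.48 for Pcna, -0.057 to 0.40 for Ccnd2, -0.24 to 0.74 for Hopx, -0.80 to 0 for Agr2, 0 to 2.69 for Lyz1, -4.35 to 4.39 for Ccl5 and -3.18 to 5.69 for Gzma.

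Depth limits low genes most, since 3 counts are 1.68 and 1.87 CPM in the stem sums and 0.355 and 0.525 CPM in the TA sums.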
